A study of Homo sapiens and Mus musculus with 69 samples.

Results

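H82 (NCI-H82, written NCI-82 in the labels) is a human small cell lung cancer (SCLC) line of the NEUROD1 type, and the comparison described here is that of H82 NOTCH1 cells with doxycycline (libraries 7 to 9) against the same cells without it (libraries 4 to 6). These 6 libraries were chosen by their labels, out of 21 H82 libraries and 69 samples in the series, and all 20516 genes of the human table were considered. Both groups carried the same doxycycline-inducible lentiviral vector for the human NOTCH1 intracellular domain (N1ICD) and had been selected with puromycin, and the cells of one group received the drug. Parental H82 cells without the vector (libraries 1 to 3) served as a further reference.

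Several features limit these groups as a model of Notch activation. No H82 cells without the vector received doxycycline, so the drug and N1ICD cannot be told apart in these groups. H524 cells with a REST vector did receive it in this series, but they were not compared here. In the overexpression experiments the cells with doxycycline were collected as adherent cells after long culture, whereas SCLC lines grow mostly as floating clusters, so attachment and time in culture moved together with the induction. The labels give no time of exposure. Nothing in the labels says that the 3 libraries of a group came from separate cultures. The errors and *P* values measure the spread between libraries within a group, which may be technical. This spread was pooled over all groups fitted, not only those compared. In bulk RNA, fewer cells of a kind and less RNA per cell cannot be told apart.

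Notch receptors are cleaved when a ligand of the Delta or Jagged family on a neighboring cell binds them, and the released intracellular domain joins the DNA-binding protein RBPJ and a Mastermind coactivator to switch on genes such as those of the HES and HEY families. HES proteins repress the proneural transcription factors that drive neuroendocrine (NE) fate. Most SCLC is NE, with high levels of proneural factors such as *NEUROD1* and low Notch activity, and it expresses little of the major histocompatibility complex (MHC) class I machinery. A non-NE state with REST, the repressor of neuronal genes, is known from the same tumors.

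The deposited unit was log2(RPKM + 1), in which RPKM scales reads by transcript length and library size, and all levels and differences below are on this scale. It compresses differences at low levels, so the change of a gene that is near 0 in one group is understated. With no counts given, the absolute depth is unknown. From the steps between the lowest values, the relative sizes of the 9 libraries ranged from 0.822 to 1.13 times their median, and 15533 to 17043 genes per library lay above 0.

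The 3 libraries without doxycycline were not alike. Libraries 5 and 6 correlated at 0.993 over the genes tested, while library 4 correlated with them at 0.958 and 0.964. Library 4 differed from both of its group mates by more than 1 in 1520 genes, against 81 genes for library 5 and 53 for library 6. Among the libraries with doxycycline the same count was 84, 600 and 76 for libraries 7, 8 and 9. The mean level of the 1621 genes that were higher with doxycycline in another NEUROD1 line, H524, was 2.11 in library 4, 2.40 and 2.38 in libraries 5 and 6, and 3.60 to 3.83 in the libraries with doxycycline. In the same order, the mean level of the 1047 genes that were lower in H524 was 3.52, then 3.70 and 3.73, then 2.61 to 2.64. Library 4 thus lay on the side of the cells without doxycycline by both means. In the hypoxia gene *BNIP3* it was at 5.29, nearer to the third parental library (4.73) than to libraries 5 and 6 (9.05 and 8.95). In *COL3A1*, which encodes a fibrillar collagen, it was at 0.00, as were all 3 parental libraries, while libraries 5 and 6 had 5.06 and 5.26. Values without library 4 are given beside the results that it moved most.

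**Figure D1:**
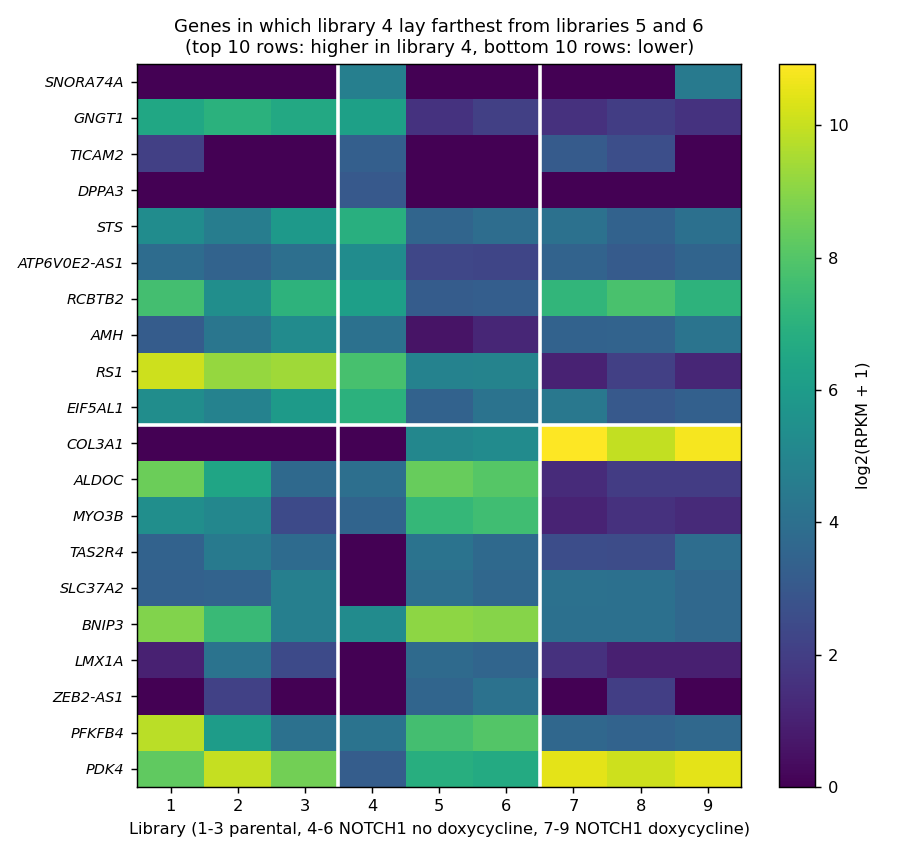
Level (color, log2(RPKM + 1)) of the 10 genes in which library 4 lay farthest above and the 10 in which it lay farthest below both libraries 5 and 6, in the 3 parental, 3 uninduced and 3 induced H82 libraries. *COL3A1* was at 0.00 in library 4 and near 5 in libraries 5 and 6, and the hypoxia genes *ALDOC*, *BNIP3* and *PFKFB4* were lower in library 4 than in libraries 5 and 6.

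Doxycycline went with a change of a large part of the transcriptome. Of 13903 genes tested with limma over all H82 libraries, 3770 (27.1%) were called, meaning an adjusted *P* under 0.05 and a log2 fold change of at least 1 in either direction. Of these, 2044 (14.7% of the genes tested) were higher with doxycycline and 1726 (12.4%) were lower. These shares are the background for the counts of every gene list below. The 3 libraries of one group lay wholly above those of the other in 7313 genes (52.6%). Without library 4, 4223 of 13884 genes (30.4%) were called, and 3508 of the 3770 calls were made again in the same direction. Against the parental libraries in place of the uninduced ones, 3763 genes (27.1%) were called, and 2705 of the 3770 calls were made again in the same direction. The 2 comparisons share the libraries with doxycycline.

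**Figure D2:**
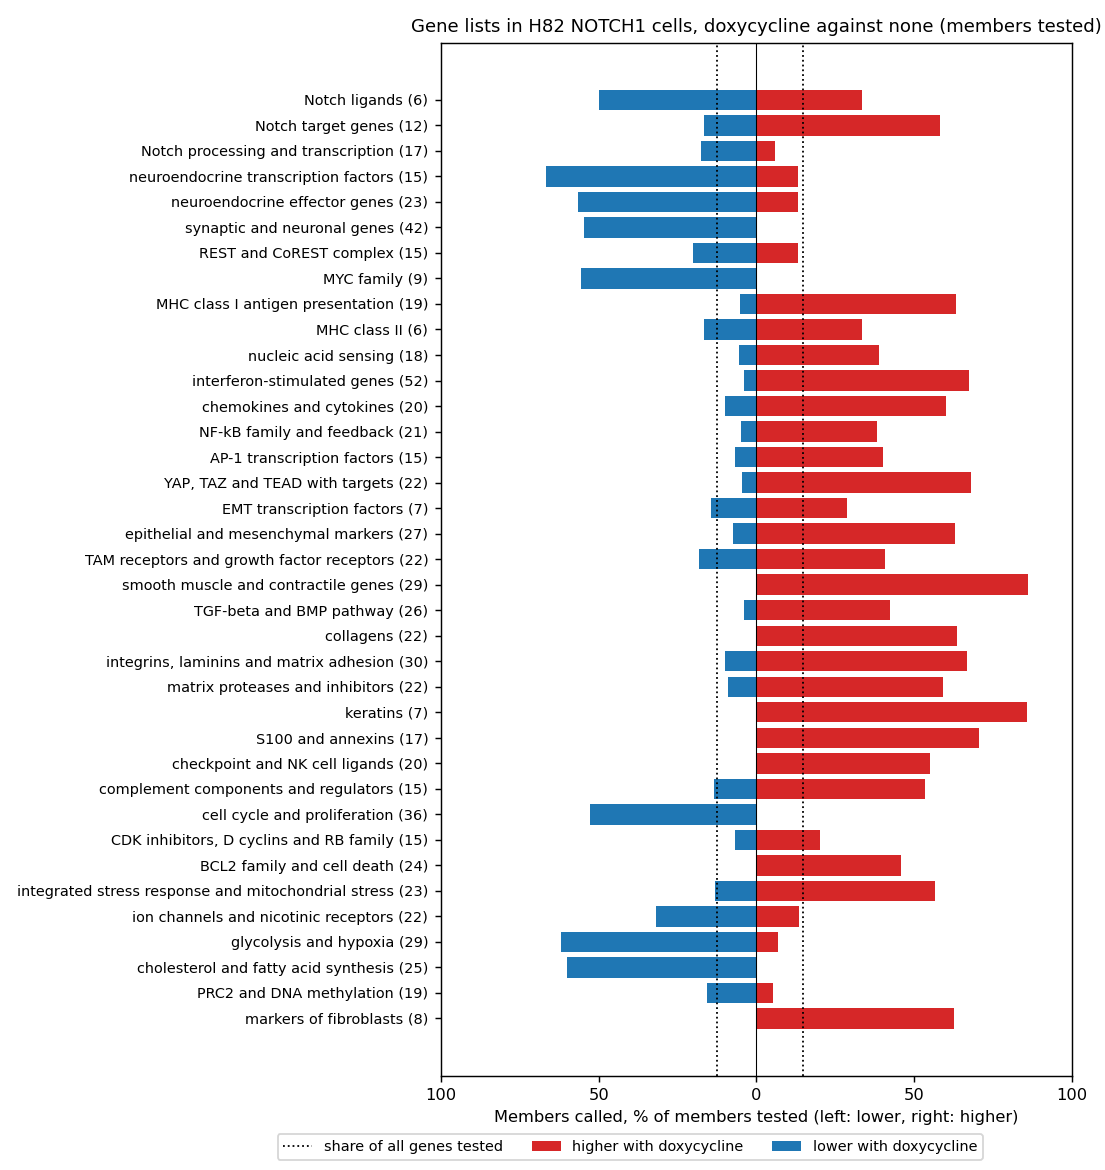
Share of the tested members of each gene list with 5 or more of them that were higher (right, red) or lower (left, blue) with doxycycline, in percent, with the number tested in brackets and the shares of all genes tested as dotted lines (14.7% higher, 12.4% lower). The photoreceptor and imprinted lists, which were chosen after the values were seen, are left out. Contractile genes, keratins and S100 and annexin genes had the highest shares on the right, and the NE transcription factors, glycolysis and cholesterol lists stood on the left.

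The Notch receptors, ligands and targets changed unevenly. *NOTCH1* (chromosome 9, 139388885 to 139440500, GRCh37) was at 1.45, 0.88 and 1.15 without doxycycline and at 4.75, 4.26 and 5.56 with it, a log2 fold change of 3.70 ± 0.44 (SE; adjusted *P* = 1.6e-06, limma). The reads of *NOTCH1* include those of the vector's N1ICD, and parental cells had at most 0.04. The groups did not overlap, and the 3 uninduced libraries lay above all parental ones. *NOTCH3*, a receptor gene that is itself a Notch target, was at 0.09, 0.15 and 0.20 without doxycycline and at 3.91, 2.89 and 4.51 with it. *NOTCH2* was at 4.28, 4.00 and 4.01 against 5.60, 4.44 and 5.12, and its log2 fold change of 0.96 ± 0.26 fell short of the minimum, although it reached 1.05 without library 4. *NOTCH4* stayed under 0.3 in all 6 libraries.

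Ligands moved in both directions. *JAG1*, which encodes an activating ligand, was at 1.05, 0.52 and 0.92 and rose to 7.20, 6.98 and 7.85, a log2 fold change of 6.51 ± 0.37. *DLL4* rose by 2.44 ± 0.63 from libraries at 2.24, 2.38 and 1.96, though the first parental library alone was at 4.03. *DLL3*, an inhibitory ligand that is a surface target in SCLC, was at 4.79, 4.89 and 4.88 and fell to 1.00, 0.91 and 0.83. Its log2 fold change was -3.94 ± 0.15, with the narrowest error among the ligands called. *JAG2* fell by 1.97 and *DLK1*, which encodes a noncanonical ligand, fell by 1.81, although *JAG2* was no longer a call against the parental cells (-0.58). Of 6 ligands tested, 2 rose and 3 fell.

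Among 12 target genes tested, 7 rose and 2 fell, with a median log2 fold change of 1.55 beside -0.003 for all genes tested. *HES1*, the classic Notch-induced repressor, was at 1.42, 1.31 and 1.14 and reached 6.16, 4.56 and 5.69, a log2 fold change of 4.18 ± 0.34 (adjusted *P* = 1.6e-08, limma). *HEY1* rose by 3.22 and *HES4* by 2.63. *HES5* was listed at 0 in all parental and uninduced libraries and at 2.82, 2.43 and 3.72 with doxycycline. *HEY2* rose by 1.51 and *NRARP*, a feedback inhibitor of N1ICD, by 1.59, and *NRARP* was already at 2.69 to 2.97 in the uninduced cells against 1.13 to 1.64 in parental cells. *HEYL* (0.98) and *DTX1* (-0.97) stayed just under the minimum. *HES6* and *HES7*, HES genes that are expressed in neurogenesis and somite formation, fell by 3.56 and 1.62. Of the 17 tested genes of receptor processing and the nuclear complex, 1 rose and 3 fell. This was 23.5% called, beside 27.1% of all genes tested. *MAML2*, a Mastermind coactivator, rose by 1.45. The log2 fold changes of the lower genes were -2.67 in *MAML3*, -1.77 in *NUMBL* and -1.75 in *LFNG*, and *RBPJ* itself had -0.70 ± 0.21.

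**Figure D3:**
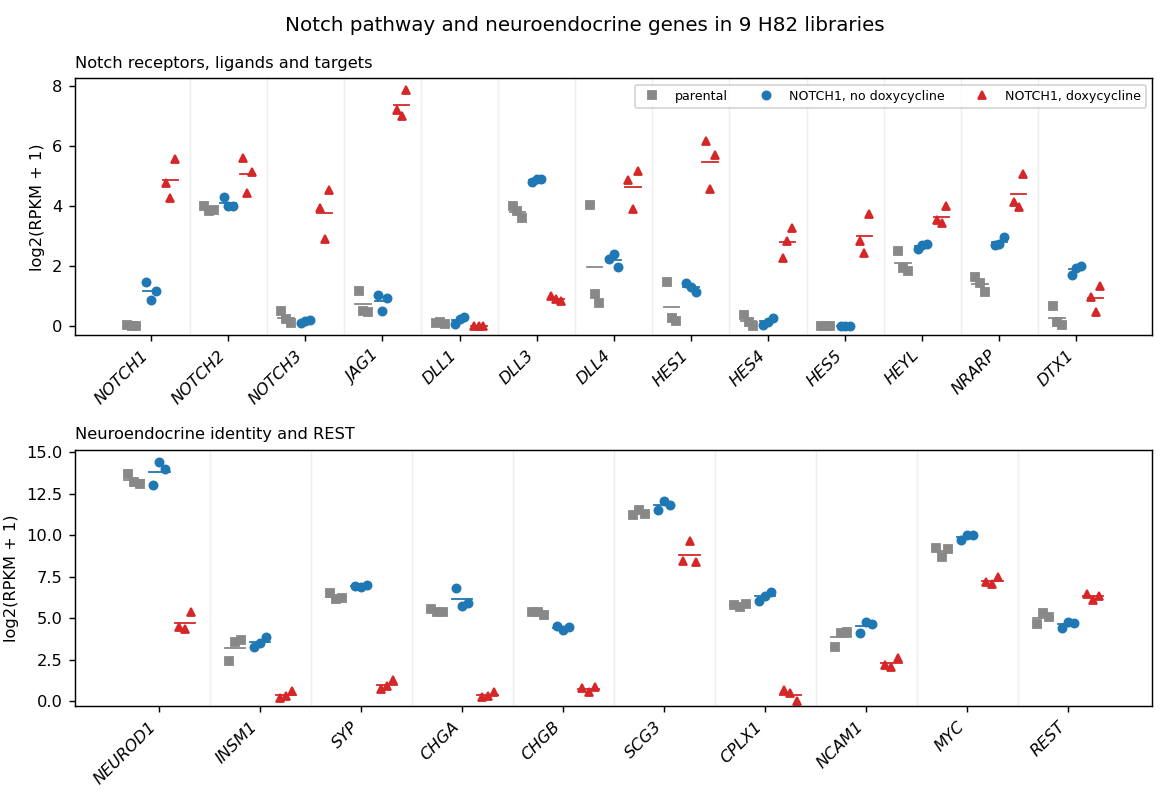
Level (log2(RPKM + 1)) of Notch genes (top) and of NE genes and *REST* (bottom) in each parental (squares), uninduced (circles) and induced (triangles) H82 library, with a line at the mean of each group of 3. *JAG1* and *HES1* lay higher and *DLL3*, *NEUROD1* and *SYP* lower with doxycycline, with no overlap between the groups.

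The promoters of 3 HES and HEY genes are shown because they carry the letters TGGGAA, the core of the sequence that RBPJ binds, on either strand and upstream of the annotated start. The windows are 100 bases long and read along the gene's strand, from RefSeq (promoter table of GRCh38.p14), with the match in capitals and positions from an exact match to GRCh37. They are *HES1* (chr3:193853805-193853904, plus strand), *HES5* (chr1:2461753-2461852, minus strand) and *HEYL* (chr1:40105401-40105500, minus strand).
HES1: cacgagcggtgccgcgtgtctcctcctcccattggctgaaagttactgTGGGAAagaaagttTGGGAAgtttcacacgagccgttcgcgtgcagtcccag
HES5: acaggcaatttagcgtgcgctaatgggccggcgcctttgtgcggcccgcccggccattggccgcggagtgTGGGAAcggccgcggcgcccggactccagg
HEYL: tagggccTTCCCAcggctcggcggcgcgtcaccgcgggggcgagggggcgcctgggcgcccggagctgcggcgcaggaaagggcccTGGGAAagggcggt
These letters are common, since 24.3% of the 27305 promoters of the table hold them, so a match is a description and not a binding site.

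NE identity genes fell together with *NEUROD1*. *NEUROD1* (chromosome 2, 182533022 to 182545554, GRCh37), the transcription factor that defines this SCLC type, was at 13.03, 14.41 and 14.00 without doxycycline and at 4.45, 4.33 and 5.38 with it. The log2 fold change of -9.10 ± 0.76 was the largest decrease of any gene tested, and the groups were far apart, with parental cells at 13.07 to 13.67. Of 15 NE transcription factors tested, 10 fell and 2 rose (median -2.00). *NEUROG1*, a proneural factor upstream of *NEUROD1*, was at 5.50, 5.44 and 5.36 and fell to 0.04, 0.00 and 0.00. *INSM1* (chromosome 20, 20348748 to 20351593), a pan-NE factor, went from 3.30, 3.54 and 3.86 to 0.23, 0.32 and 0.63, and *MYT1* and *POU3F2*, neuronal factors, fell by 3.31 and 3.25. *POU2F3*, the tuft cell factor, was not tested, as it lay under 0.5 in all 9 libraries. The members that rose were *YAP1*, which the list holds as a marker of the non-NE type, by 2.56, and *LHX2* by 1.56.

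Of 23 NE effector genes tested, 13 fell and 3 rose (median -1.46). *SYP* (chromosome X, 49044268 to 49056677), which encodes synaptophysin, a diagnostic marker of NE tumors, was at 6.96, 6.90 and 7.01 and fell to 0.78, 0.94 and 1.26. Its log2 fold change was -5.97 ± 0.23, and no library lay between the groups. The chromogranin genes *CHGA* and *CHGB*, which encode proteins of secretory granules, fell by 5.78 and 3.69. *SCG3* fell by 2.97 but stayed at 8.43, 9.62 and 8.41. *NCAM1* fell by 2.21. *STMN2* fell by 5.67, and by 6.80 without library 4, since it was at 5.77 there and at 9.30 and 9.02 in libraries 5 and 6. The prohormone convertase gene *PCSK1* went the other way, from 0.36, 0.65 and 1.45 to 6.50, 6.89 and 7.05, as did *SCG5*, which encodes a granule chaperone, by 1.66. *CALCA*, the calcitonin gene, was listed at 0 without doxycycline and at 1.21, 2.55 and 1.63 with it.

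None of 42 synaptic and neuronal genes tested rose and 23 fell (median -1.71), and 26 fell without library 4. *CPLX1*, whose product clamps synaptic vesicles before release, was at 6.06, 6.36 and 6.55 and fell to 0.70, 0.49 and 0.00. *SYT1* and *CPLX2* of the same machinery had log2 fold changes of -4.56 and -4.55, the vesicle GTPase gene *RAB3A* of -4.52 and the neurofilament gene *NEFM* of -4.53. *SNAP25* fell by 1.03, which became -0.84 and no longer a call without library 4. *REST* (chromosome 4, 57774042 to 57832974) was at 4.42, 4.80 and 4.70 and rose to 6.48, 6.13 and 6.33, a log2 fold change of 1.67 ± 0.22 (adjusted *P* = 5.5e-06, limma). Of the other 14 genes of the REST and CoREST list, *CTDSP1* rose by 1.85, and *RCOR2*, *KDM1A* and *EHMT2* fell by 2.60, 1.51 and 1.08, with *RCOR1* at 0.21 ± 0.21.

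*MYC* (the oncogene that is high in this type) was at 9.70, 9.99 and 10.02 and fell to 7.17, 7.09 and 7.51. Of 9 genes of the MYC network tested, 5 fell (4 without library 4) and none rose, with *MYCL* (-2.14) and *MXI1* (-1.49, or -2.17 without library 4) among them, and *MAX*, the shared partner, had -0.04 ± 0.21. Ion channel genes were mixed, with 7 of 22 lower and 3 higher (31.8% and 13.6%, beside 12.4% and 14.7% of all genes tested). *KCNC1*, a voltage-gated potassium channel, fell by 4.39, and the nicotinic receptor genes *CHRNB2*, *CHRNA3* and *CHRNB4* had -4.04, -3.20 and -2.38, or -4.95, -1.67 and -0.17 against the parental cells, where *CHRNB4* was no longer a call. *CACNA1A*, the P/Q-type calcium channel, was listed at 0 without doxycycline and at 3.94, 4.31 and 5.14 with it.

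MHC class I genes rose. Of 19 genes of class I antigen presentation tested, 12 rose and 1 fell, with a median of 1.45 and the same 12 and 1 by count without library 4. *HLA-B*, which encodes a class I heavy chain, was at 0.65, 0.74 and 0.91 and reached 5.25, 5.85 and 5.51, a log2 fold change of 4.77 ± 0.30. *HLA-C* rose by 2.93, and *B2M*, the light chain gene, went from 6.11, 5.96 and 5.64 to 7.93, 9.31 and 7.95. Several genes of peptide transport, loading and trimming rose as well. *TAP1* (chromosome 6, 32812986 to 32821593) was at 0.06, 0.04 and 0.05 and reached 2.45, 2.26 and 2.35, while *TAP2*, *TAPBP* and *ERAP1* rose by 1.30, 2.43 and 1.45. The immunoproteasome genes *PSMB9* and *PSMB8* rose by 5.24 and 3.65, but the third subunit gene, *PSMB10*, had a log2 fold change of -0.84. *HLA-E*, the ligand of the NK cell receptor NKG2A, was at 3.89, 5.13 and 4.74 against 5.44, 5.48 and 5.46, which did not pass (adjusted *P* = 0.077, limma). *NLRC5*, the transactivator of class I genes, stayed low, at 0.00, 0.00 and 0.02 against 0.87, 0.78 and 0.96, a difference of 0.87 under the minimum. The chaperone gene *CALR* fell by 1.05. Class II genes were mixed, with 2 of 6 higher (*HLA-DPA1* by 1.52 and *HLA-DMA* by 1.37) and 1 lower (*HLA-DQB1* by 1.89). This was 33.3% and 16.7%, beside 14.7% and 12.4% of all genes tested. *CIITA*, the class II transactivator, was at or near 0 in all libraries.

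Of 18 nucleic acid sensing genes tested, 7 rose and 1 fell (median 0.88). *IFIH1*, which encodes the double-stranded RNA sensor MDA5, was at 0.00, 0.00 and 1.33 and reached 7.45, 7.87 and 7.45, a log2 fold change of 7.15 ± 0.53. *TLR3*, the endosomal sensor of double-stranded RNA, was listed at 0 in the uninduced cells and at 3.79, 4.75 and 4.67 with doxycycline. *DDX58*, which encodes RIG-I, rose by 1.06, but it was no longer a call against the parental cells (0.40) or with quantile normalization (0.73). *STING1* (in the table as *TMEM173*, chromosome 5, 138855118 to 138862520), the adaptor of the DNA sensing pathway, was at 0.04, 0.00 and 0.00 and reached 1.07, 1.17 and 1.10, a log2 fold change of 1.10 ± 0.18 (adjusted *P* = 6.6e-05, limma). Against the parental cells the difference was 0.78, under the minimum. *CGAS*, the DNA sensor gene, was not tested, with 0.33, 0.42 and 0.40 against at most 0.08. The kinase gene *TBK1* had -0.05 ± 0.19 and *IRF3* -0.31 ± 0.15, and neither passed. *TREX1*, a nuclease that removes cytosolic DNA, rose by 1.21 and *SAMHD1* fell by 1.38.

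Of 52 interferon-stimulated genes tested, 35 rose and 2 fell (median 1.63). *IFITM2*, *IFITM1* and *IFITM3*, membrane proteins that block virus entry, rose by 6.04, 5.73 and 5.28, but these genes are alike in sequence and the estimates may share reads. *LGALS3BP* rose by 5.43, and by 4.68 without library 4, and *APOL6* by 5.24. *ISG15*, a ubiquitin-like protein, went from 0.69, 0.69 and 0.58 to 4.54, 4.81 and 4.71. *IRF1* and *IRF9*, transcription factors of the interferon response, rose by 2.40 and 3.48. Not every classic member was present. *IFIT1* and *IFIT3* rose by 1.30 and 1.55 to levels of 1.13 to 1.76, and *MX1* and *OAS1* stayed under 0.2 in all libraries. *USP18*, a brake on the pathway, was at 5.93, 6.19 and 6.33 in the uninduced cells and fell by 1.18, but parental cells had 2.25, 0.60 and 0.79, so that against them it was higher by 3.76 with doxycycline. *LY6E* fell by 1.21. The type I interferon gene *IFNB1* was listed at 0 except for 0.61 in library 7.

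**Figure D4:**
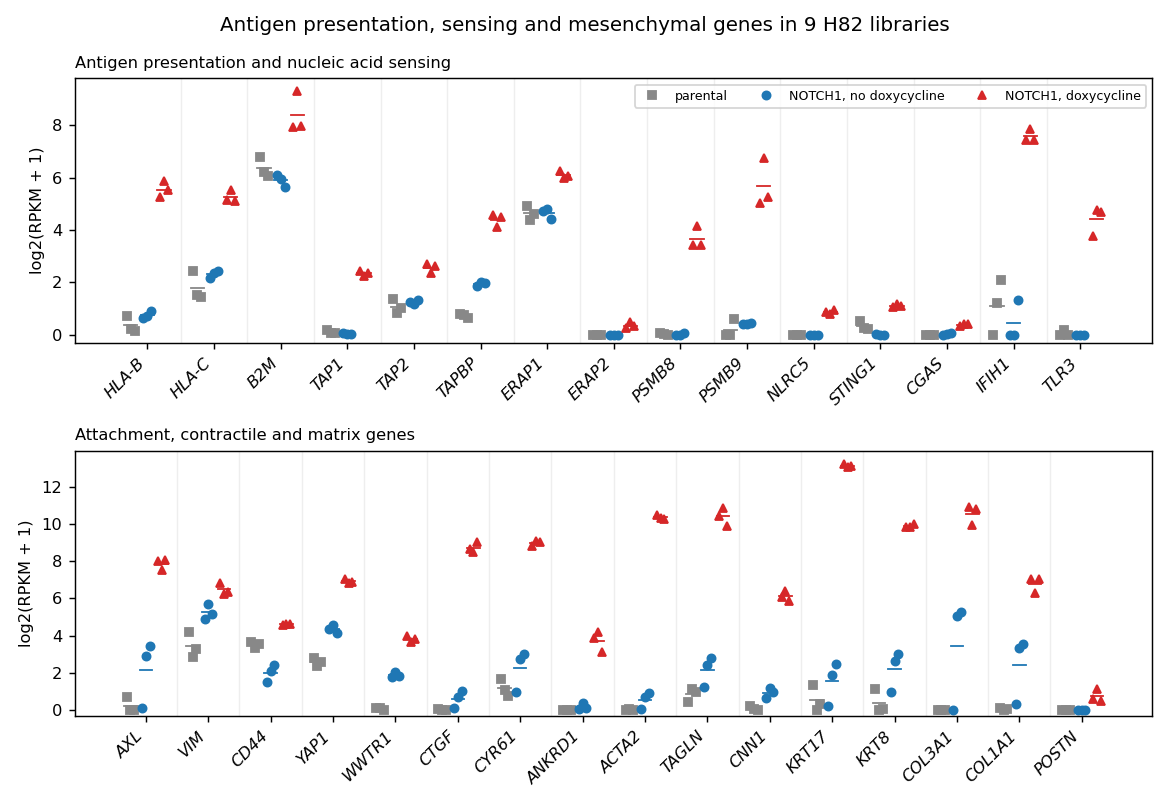
Level (log2(RPKM + 1)) of antigen presentation and sensing genes (top) and of attachment, contractile and matrix genes (bottom) in each parental (squares), uninduced (circles) and induced (triangles) H82 library, with a line at the mean of each group of 3. *HLA-B*, *PSMB9* and *IFIH1* lay higher with doxycycline, and *AXL*, *COL3A1* and *COL1A1* were spread among the uninduced libraries.

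The promoters of 3 of these genes are shown because they hold GAAANNGAA, the letters of the interferon-stimulated response element (ISRE), more than once upstream of the start. As above, the windows are 100 bases from RefSeq along the gene's strand with the matches on either strand in capitals, and overlapping matches run together. They are *ISG15* (chr1:948725-948824, plus strand), *IFIT3* (chr10:91087571-91087670, plus strand) and *IFIH1* (chr2:163175298-163175397, minus strand).
ISG15: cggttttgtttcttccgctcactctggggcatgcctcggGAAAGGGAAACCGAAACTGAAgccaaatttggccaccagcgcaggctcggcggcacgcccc
IFIT3: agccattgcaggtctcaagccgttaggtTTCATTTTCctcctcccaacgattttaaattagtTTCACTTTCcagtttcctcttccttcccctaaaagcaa
IFIH1: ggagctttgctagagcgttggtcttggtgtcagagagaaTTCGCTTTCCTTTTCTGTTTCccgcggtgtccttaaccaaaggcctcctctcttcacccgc
Of all promoters in the table, 8.29% hold these letters.

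Secreted and surface immune genes rose as well. Of 20 chemokine and cytokine genes tested, 12 rose and 2 fell, and neither of the lower calls was made without library 4. *CCL2*, which attracts monocytes, was at 0.27, 0.00 and 0.20 and reached 7.35, 8.23 and 7.96, a log2 fold change of 7.69 ± 0.36. *IL32*, *CSF1* and *IL4R* rose by 5.05, 4.94 and 3.80, and *CXCL12* was listed at 0 without doxycycline and at 3.79, 3.87 and 5.02 with it. The T cell chemokine gene *CXCL10* was not tested, as it was listed at 0 without doxycycline and at 0.05, 0.72 and 0.10 with it, and its relative *CXCL11* was at 4.59, 3.71 and 3.76 against 1.65, 3.46 and 2.66. Of 21 NF-kB genes tested, 8 rose and 1 fell (11 and 1 without library 4). *TNFAIP3*, which feeds back on NF-kB, rose by 4.49, *ICAM1* by 3.38 and *RELB* by 2.54, and *CD40* fell by 1.57. Of 20 checkpoint and NK cell ligand genes, 11 rose and none fell. *CD274*, which encodes PD-L1, went from 0.60, 0.94 and 0.84 to 5.39, 5.33 and 4.58, *PDCD1LG2* (PD-L2) from 0.00, 0.94 and 0.98 to 5.72, 6.37 and 5.42, and *MICA*, a ligand of the activating NK receptor NKG2D, rose by 1.32. *CD276* (0.16) and *PVR* (0.18) did not pass. Complement genes followed with 8 of 15 higher, *CFI* by 4.40 and *C3* by 3.04 among them, and 2 lower (*C1QBP* by 1.36 and *CFD* by 1.03, the latter -0.78 and no call without library 4).

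Genes of attachment to a surface and of the actin cytoskeleton showed some of the highest shares of calls. Of 29 smooth muscle and contractile genes tested, 25 rose and none fell (median 2.51). *ACTA2* (chromosome 10, 90694831 to 90751096), which encodes smooth muscle actin, was at 0.04, 0.69 and 0.92 and reached 10.46, 10.30 and 10.29, a log2 fold change of 9.80 ± 0.22. *TAGLN*, *CNN1* and *PTRF* (the caveola gene *CAVIN1*) rose by 8.25, 5.18 and 5.08. *ACTG2* rose by 8.04, although its reads may be shared with those of *ACTA2*. YAP and TAZ are coactivators that respond to cell shape and adhesion and act through TEAD proteins. Of 22 genes of their list tested, 15 rose and 1 fell (median 2.13). *CTGF* (*CCN2*) was at 0.12, 0.69 and 1.02 and reached 8.67, 8.49 and 9.04, and *CYR61* (*CCN1*) at 0.97, 2.75 and 3.00 and reached 8.82, 9.09 and 9.02. *ANKRD1* and *AJUBA* rose by 3.55 and 4.29. The coactivator genes *YAP1* and *WWTR1* (TAZ) rose by 2.56 and 1.95, *TEAD1* had 0.79, and *TEAD4* fell by 1.01. Parental cells had less of both coactivators than uninduced NOTCH1 cells, with *WWTR1* at 0.10, 0.12 and 0.00 against 1.76, 2.05 and 1.83.

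The promoters of *CTGF* and *ANKRD1* are shown for GGAATG, the letters that TEAD proteins bind, in windows of 100 bases from RefSeq as above. They are *CTGF*, under its current name *CCN2* (chr6:132272592-132272691, minus strand), and *ANKRD1* (chr10:92680966-92681065, minus strand).
CCN2: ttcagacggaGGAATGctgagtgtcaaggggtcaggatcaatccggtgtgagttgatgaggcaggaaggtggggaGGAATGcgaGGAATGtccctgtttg
ANKRD1: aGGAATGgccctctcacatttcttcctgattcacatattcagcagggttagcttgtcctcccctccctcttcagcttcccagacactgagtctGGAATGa
Of all promoters in the table, 14% hold these letters.

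Keratins and mesenchymal genes rose side by side. Of 7 keratin genes tested, 6 rose (median 5.67). *KRT17* (chromosome 17, 39775694 to 39781094), a keratin of stressed and basal epithelium, was at 0.23, 1.91 and 2.48 and reached 13.24, 13.08 and 13.09. Its log2 fold change of 11.60 ± 0.52 was the largest increase of any gene tested, although reads of its near copies could be split between genes. *KRT8* and *KRT18*, the pair of simple epithelium, rose by 7.68 and 7.24, and *KRT80* and *KRT81* by 5.67 and 4.04. The epithelial cadherin gene *CDH1* stayed under 1 in all libraries and *EPCAM* had 0.24 ± 0.23. *VIM* (chromosome 10, 17270240 to 17279592), the mesenchymal intermediate filament, was at 4.89, 5.68 and 5.19 and reached 6.84, 6.23 and 6.37, a log2 fold change of 1.23 ± 0.31 (adjusted *P* = 0.003, limma). *CD44* rose by 2.60 and *FN1* (fibronectin) by 2.94, from 0.13, 0.72 and 0.91. Of 27 epithelial and mesenchymal markers tested, 17 rose and 2 fell. Of 7 transcription factors of epithelial-mesenchymal transition (EMT) tested, *SNAI2* (Slug) rose by 6.25 from libraries at 0.16, 0.07 and 0.00, *SNAI1* (Snail) fell by 3.43 from 6.85, 7.77 and 7.55, and *ESRP1*, an epithelial splicing factor, rose by 3.50 (2.77 without library 4). *ZEB1* (-0.67) and *ZEB2* (0.63) did not pass, and *ZEB1* became a lower call, at -1.13, without library 4. Of these 7 genes 28.6% were higher and 14.3% lower, beside 14.7% and 12.4% of all genes tested.

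Matrix and receptor genes rose in larger numbers than they fell, and several of them already differed among the uninduced libraries. Of 22 collagen genes tested, 14 rose and none fell, or 14 and 2 without library 4. *COL3A1* (chromosome 2, 189839099 to 189877472) was at 0.00, 5.06 and 5.26 and reached 10.93, 9.94 and 10.79, so that its log2 fold change of 7.12 ± 0.88 became 5.40 without library 4. *COL1A1* (4.37, or 3.34 without library 4) showed the same spread, *COL8A1* rose by 5.71 and *COL4A1* by 4.03. *COL1A2*, whose product pairs with that of *COL1A1* in type I collagen, was listed at 0 with doxycycline and stayed under 0.3 without it. Integrin and laminin genes rose in 20 of 30 cases and fell in 3, with *NID2*, a basement membrane protein, from 0.11, 0.11 and 0.23 to 7.90, 6.85 and 8.09, and *ITGA1* by 6.00, while *LAMB1* fell by 2.11 (2.91 without library 4). Of the matrix-remodeling genes, 13 of 22 protease and inhibitor genes rose and 2 fell (*MMP2* with -1.68 and *ADAM12* with -1.34). This was 59.1% and 9.09%, beside 14.7% and 12.4% of all genes tested. S100 and annexin genes rose in 12 of 17 cases and fell in none, *ANXA1* by 5.56 and *S100A10* by 4.30.

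*AXL* (chromosome 19, 41725128 to 41767671), a receptor tyrosine kinase of the TAM family, was at 0.12, 2.92 and 3.43 and reached 8.02, 7.50 and 8.09. Its log2 fold change was 5.71 ± 0.58, and 4.70 without library 4. Its relatives *MERTK* (0.18 ± 0.26) and *TYRO3* (0.07 ± 0.39) did not pass, and the TAM ligand gene *PROS1* rose by 3.21. *PDGFRB* rose by 4.87, *KDR* (VEGF receptor) by 4.39 and *DDR2*, a collagen receptor, by 3.17, and *FGFR4* fell by 2.08. Of 22 receptors and ligands, 9 rose and 4 fell, which was 40.9% and 18.2%, beside 14.7% and 12.4% of all genes tested. In the TGF-beta and BMP list, 11 of 26 rose and 1 fell (42.3% and 3.85%). The ligand genes *TGFB2*, *BMP2* and *BMP4* rose by 6.35, 4.99 and 3.44, *TGFB1* had -0.85, the receptor gene *TGFBR2* rose by 1.57, and the BMP target *ID1* fell by 2.20, with libraries at 4.89, 3.11 and 2.39 against 1.96, 0.84 and 0.98, and was no longer a call without library 4 (-1.49). The AP-1 list was noisy, and it also holds *EGR1*, which does not encode an AP-1 subunit. *EGR1* was at 0.18, 0.18 and 0.10 against 6.00, 5.11 and 6.68, but it was also at 4.75 in the first parental library. *FOS* and *JUN* spread widely within the uninduced group (*FOS* at 0.63, 3.43 and 1.35), with *FOS* no longer a call without library 4. *FOSL2* and *FOSL1* rose by 2.31 and 2.24, and 6 of 15 members rose and 1, *JUND*, fell by 1.73.

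Genes of division fell. Of 36 cell cycle genes tested, 19 fell and none rose (median -1.08), and without library 4 the counts were 18 and 1. *AURKB*, *PLK1* and *AURKA*, mitotic kinases, fell by 2.68, 2.03 and 1.90, *MKI67*, which encodes the proliferation marker Ki-67, by 1.77, and *TOP2A* by 1.52. Against the parental cells *PLK1* (-0.51), *MKI67* (-0.99) and *TOP2A* (-0.47) were no longer calls. *PCNA* was at 7.85, 7.10 and 7.24 against 6.85, 8.14 and 7.04 and did not pass. The list of cell cycle inhibitors, D cyclins and the RB family was called in 26.7% of its members, beside 27.1% of all genes tested. Of its 15 genes tested, 3 rose and 1 fell, or 2 and 2 without library 4. The inhibitor gene *CDKN1A* (p21) was at 0.31, 0.21 and 0.13 and reached 3.88, 3.42 and 3.40, *CDKN2B* and *CDKN1B* rose by 1.53 and 1.13, and *CDKN2C*, another inhibitor, fell by 2.18. *CDKN1B* was no longer a call without library 4 (0.99) or against the parental cells (0.23), and *CDKN2C* was none against them (-0.99). Of 24 cell death genes, 11 (45.8%) rose and none fell. They included the survival genes *MCL1* (2.52) and *BCL2* (2.10) and the death genes *DFNA5* (gasdermin E, 3.83), *HRK* (2.72) and *CASP4* (2.58).

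The integrated stress response list had 13 of 23 members higher and 3 lower (median 1.65). *NUPR1*, a stress-induced chromatin protein, was at 0.35, 0.00 and 0.00 and reached 9.45, 9.42 and 9.05. *GDF15*, a secreted stress cytokine, was at 2.39, 5.59 and 4.26 and reached 12.48, 11.45 and 12.04, though the first parental library had 7.37. *PSAT1*, *SESN2* and *TRIB3* rose by 3.64, 3.50 and 2.67, and *DDIT3* (CHOP) by 1.65, which was 1.24 and no longer a call without library 4 (adjusted *P* = 0.055, limma). The mitochondrial chaperone genes *HSPE1* and *HSPD1* fell by 2.26 and 2.09.

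Metabolic lists were mostly lower. Of 29 glycolysis and hypoxia genes, 18 fell and 2 rose (median -1.48), and without library 4 22 fell and 1 rose (median -1.92). *ALDOC* was at 4.01, 8.41 and 8.07 against 1.33, 1.95 and 1.94, *BNIP3* at 5.29, 9.05 and 8.95 against 4.04, 4.05 and 3.71, and *HK2* at 4.86, 8.00 and 7.82 against 4.11, 2.90 and 3.71. These genes also ran from high to low among the parental libraries, with *BNIP3* at 8.87, 7.42 and 4.73, and their log2 fold changes of -5.09, -3.83 and -3.32 became -6.50, -5.07 and -4.33 without library 4. *LDHA*, which encodes lactate dehydrogenase A, fell by 3.29. *EPAS1* (HIF-2 alpha) rose by 5.57 and *VEGFA* by 1.96 (1.32 and no longer a call without library 4), while the glucose transporter gene *SLC2A1* (1.07 ± 0.70) and *HIF1A* (0.94) were not called. Oxygen and medium were not recorded in the labels, and their part in these values was not tested. Of 25 genes of cholesterol and fatty acid synthesis, 15 fell and none rose (median -1.39), among them *SCD* (-2.94) and *HMGCS1* (-2.53), an early enzyme of cholesterol synthesis. Of 19 genes of PRC2 and DNA methylation tested, 1 rose and 3 fell. This was 21.1% called, under the 27.1% of all genes tested. *EZH2* had 0.08 ± 0.25, *JARID2* -2.12, *DNMT3B* -1.34, and *DNMT3L*, a germ line cofactor of DNA methylation that is not on this list but among the 15 largest decreases, was at 4.08, 6.72 and 6.28 and listed at 0 in all 3 libraries with doxycycline.

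The 15 genes of largest increase, by the fitted log2 fold change and with a mean of at least 2, were *KRT17*, *ACTA2*, *NUPR1*, *PLA2G2A*, *ECM2*, *OR51E1*, *TAGLN*, *H19*, *CTGF*, *ACTG2*, *EVA1A*, *GDF15*, *CCL2*, *KRT8* and *NID2*. *PLA2G2A*, a secreted phospholipase, and *ECM2*, a matrix protein, were listed at 0 without doxycycline, and at 7.63, 9.27 and 9.31 and at 8.72, 8.98 and 8.23 with it. *OR51E1*, an olfactory receptor gene, was at 0.00, 0.88 and 0.00 and reached 7.84, 9.11 and 8.92. *EVA1A* was at 0.00, 0.57 and 1.02 against 8.30, 8.88 and 8.17. *H19*, an imprinted noncoding RNA, was at 1.32, 4.43 and 4.03 against 11.70, 10.24 and 12.36, a log2 fold change of 8.17 ± 0.85 (7.20 without library 4). In the other direction the 15 largest decreases were *NEUROD1*, *CHRNA1*, *RP1*, *NXNL1*, *DIAPH2-AS1*, *CAMKV*, *DCT*, *LINC01053*, *SYP*, *RBP3*, *HPCA*, *CPLX1*, *FAM57B*, *CHGA* and *DNMT3L*. *CHRNA1*, the muscle-type nicotinic receptor subunit, was at 8.32, 10.07 and 9.69 and fell to 0.23, 1.51 and 0.86. *RP1*, *NXNL1* and *RBP3* are photoreceptor genes, and *RP1* fell from 9.34, 8.24 and 7.79 to 0.00, 0.69 and 0.00. *DCT*, a melanin enzyme, fell from 10.66, 11.67 and 11.56 to 4.77, 5.64 and 5.01. *CAMKV* and *HPCA*, neuronal calcium signaling genes, had log2 fold changes of -6.16 and -5.94.

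The same vector and drug were used in H82 cells with *REST* or *STING1* knocked out, in 6 libraries each that share none with the 6 above, although all H82 groups share one estimate of the spread. The labels do not say whether the libraries of a knockout came from 1 clone or several. The study showed immunoblots of single-cell clones for both knockouts. The transcript level here did not check them. *REST* was at 3.99, 4.15 and 4.20 in the uninduced REST KO libraries and at 4.95, 4.95 and 5.89 in the induced ones, and *STING1* was at 0.55, 0.52 and 0.11 and at 1.27, 1.53 and 2.04 in the STING KO libraries, so the libraries labelled REST KO and STING KO held reads of both genes. *NOTCH1* reached 8.75, 9.15 and 10.74 in the induced REST KO libraries and 5.97, 7.41 and 7.48 in the induced STING KO libraries. Both lay above the 4.26 to 5.56 of the line without a knockout, and the cause was not tested.

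In the REST KO pair 4157 of 13903 genes were called (29.9%), and 2390 of the 3770 calls above were made there in the same direction. This was 63.4% of the first list and 57.5% of the second, and 53 genes were called in opposite directions. In the STING KO pair 2815 genes were called (20.2%), of which 2004 were shared in direction, 53.2% of the first list and 71.2% of the second, and 21 genes were opposite. *NEUROD1* fell in both (-7.99 and -8.13), and *ACTA2*, *KRT17* and *CTGF* rose in both. Synaptic genes were called lower in 23 of 42 cases without a knockout but in 8 of 42 in each knockout pair, with 7 and 4 higher. Over all genes 13.7% were lower and 16.2% higher in the REST KO pair, and 8.07% and 12.2% in the STING KO pair. *CPLX1* had log2 fold changes of -0.95 and -1.13 there against -5.93, *SYP* -2.25 and -4.43 against -5.97, and *INSM1* -0.62 and -2.00 against -3.18. For class I antigen presentation 14 of 19 genes were higher in the REST KO pair and 5 of 19 in the STING KO pair, with *HLA-B* at 7.21 and 1.45, *PSMB9* at 6.86 and 1.48 and *TAP1* at 2.99 and 0.42, against 4.77, 5.24 and 2.31 without a knockout. These are changes from the uninduced cells of each pair, and those cells were not alike. In uninduced STING KO libraries *NOTCH1* was at 2.15, 1.77 and 1.89 and *REST* at 5.35, 5.26 and 5.17. Uninduced cells without a knockout had 1.45, 0.88 and 1.15, and 4.42, 4.80 and 4.70. In uninduced REST KO libraries *NOTCH1* was at 1.28, 1.21 and 1.47. The difference between the pairs was not tested, and any part of a clone, the level of *NOTCH1* and the deleted gene cannot be told apart.

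The H524 and H69 lines with the same vector allowed a test of the difference of the responses. H524 is another *NEUROD1* line and H69 a line of another NE type, and limma was fitted to 45 libraries of the 3 lines with 15439 genes tested. Doxycycline called 2668 genes (17.3%) in H524 and 5722 (37.1%) in H69. The responses of H82 and H524 differed in 2993 genes (19.4%), with 1454 differences positive in H82 and 1539 negative, and those of H82 and H69 in 6768 genes (43.8%). Of the 3770 H82 calls, 1304 (34.6%) were also made in H524 in the same direction, which was 54.4% of the H524 calls among the genes tested in H82, and 92 were made in the opposite one. In H69 1348 (35.8%) were made in the same direction, 27% of the H69 calls among those genes, and 566 in the opposite one.

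**Figure D5:**
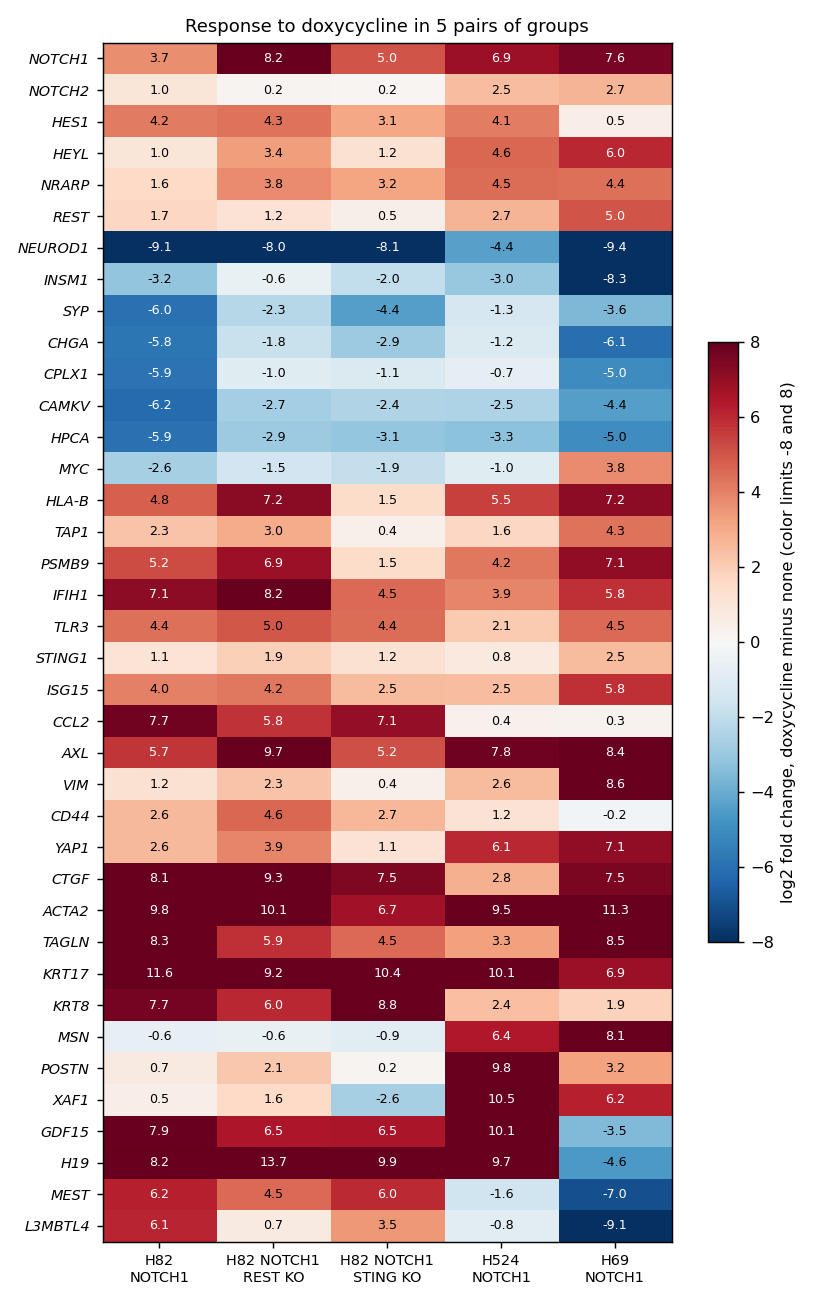
Log2 fold change with doxycycline (color and number) of named genes in H82 NOTCH1 cells, in the same cells labelled REST KO or STING KO, and in H524 and H69 NOTCH1 cells. The colors saturate at -8 and 8, and values of genes listed at 0 in a group, such as *TLR3* and *POSTN*, depend on the pseudocount. *NEUROD1* was lower and *ACTA2* and *KRT17* higher in all 5 pairs, while *CCL2* rose in the 3 H82 pairs and *MSN* in H524 and H69.

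Genes of one kind could differ by line. *CCL2* rose by 7.69 in H82, whereas in H524 it was listed at 0 without doxycycline and had a mean of 0.36 with it, and in H69 its log2 fold change was 0.25. *HES1* rose in H82 by 4.18 and in H524 by 4.11, but had 0.52 in H69. *CTGF* rose by 8.12 in H82, 2.82 in H524 and 7.54 in H69. *MSN*, which encodes moesin, a linker of membrane and actin, was already at a mean of 11.57 in uninduced H82 cells and stayed at 10.93, while it rose in H524 from 2.92 to 9.30 and in H69 from 3.60 to 11.71. *POSTN*, a matrix protein of fibroblasts, reached a mean of 0.75 in H82 and 9.81 in H524, and was listed at 0 without doxycycline in both. *MYC* fell by 2.65 in H82 and rose by 3.78 in H69.

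Markers of other cells differed by list. Of 19 markers of T cells, myeloid and endothelial cells in the table, 15 stayed under 1 in the 6 libraries, and *PTPRC*, *CDH5* and *VWF* stayed at or near 0. Their summed RPKM was 5.57 to 6.75 without doxycycline and 7.14 to 10.1 with it. *TEK* and *CD8A* rose by 2.02 and 1.09, and *HBA1* fell by 2.05. Of 8 fibroblast markers tested, 5 rose (*COL3A1*, *PDGFRB*, *COL1A1*, *LUM* and *TCF21*), and the list's summed RPKM was 8.73 to 65.0 without doxycycline and 1124 to 2159 with it, while its other members *DCN*, *PDGFRA*, *COL1A2* and *THY1* were under 1 in all 6 libraries, although *THY1* was at 3.91, 3.71 and 3.56 in parental cells. Of 4 lung and tuft cell markers tested, *SFTPD* rose by 2.59 and *CHAT* fell by 3.78, and 14 of 17 stayed under 1.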

How the data were processed

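PolyA RNA libraries (Illumina Stranded mRNA Prep) were sequenced in read pairs. The authors used Cutadapt to trim the reads, STAR to align them to hg19 and RSEM to quantify genes, normalized with the TMM factors of edgeR and deposited log2(RPKM + 1) values of 20516 genes by symbol (tool names from the submitters' processing notes and the study's methods; versions are not given in the sources used here). The deposited unit is thus log2 of RPKM with a pseudocount of 1, without counts, so no count model was used, and the absolute depth and its precision are unknown. The libraries were grouped by their labels.

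Genes that reached 1 in 3 or more libraries were fitted with limma 3.58.1 (R 4.3.3, variances with a trend) over the 21 H82 libraries in 7 groups of 3, with 14 residual degrees of freedom. *P* values were adjusted by the Benjamini-Hochberg method over all genes tested, and a call needed a value under 0.05 by this measure with a log2 fold change of 1 or more in size. Differences between lines were tested as an interaction over 45 libraries. The procedure was tested on simulated data with independent noise. These held no outlying library such as library 4 and no seeded change in genes near 0, so the test does not cover either. Relative library sizes came from the steps between the lowest values.

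The comparison, the gene lists and the tests were chosen with earlier results of these data known, so the lists are described by counts and medians without a test. Named genes were those the study names for its models, up to 5 called members of a list in each direction with groups that did not overlap, members that define a list, the 15 largest changes in each direction, the 10 largest differences from each other line in each direction, and the 10 genes on each side in which library 4 lay farthest from its mates. A few further list members were named after their values were seen. Promoter sequences are from RefSeq. Only 79.5% of the genes tested had one, below the 80% set as a minimum, so shares of motifs were not compared between called genes. Some list genes had no match by symbol. Mouse libraries were not used here. A few genes are not reported here.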

Additional observations from a re-analysis of the deposited data

Results flagged for a closer look

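The doxycycline response of H82 NOTCH1 cells differed from that of H524 NOTCH1 cells in 2993 genes and from that of H69 NOTCH1 cells in 6768 genes, by limma's test of the difference itself. The values below are the differences of the log2 fold changes, H82 minus the other line. Where a group was listed at 0, as *L3MBTL4*, *CCBE1*, *VSNL1*, *ADAMTS10*, *LINC00475* and *POSTN* were in uninduced H82 cells, the size depends on the pseudocount.

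The response was higher in H82 than in H524 by 7.86 in *MEST*, 7.33 in *CCL2*, 7.24 in *TNNT2*, 7.01 in *SIAH2*, 6.99 in *VSNL1*, 6.94 in *NAV2*, 6.93 in *L3MBTL4*, 6.81 in *AOC1*, 6.67 in *CCBE1* and 6.55 in *UBD*. *MEST*, an imprinted gene, had means of 0.42 without and 6.66 with doxycycline in H82, and of 6.79 and 5.18 in H524. *SIAH2*, a ubiquitin ligase gene, had means of 2.63 and 8.84 in H82 and of 7.73 and 6.93 in H524, so both genes were already high in uninduced H524 cells.

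In the other direction the difference was -9.99 in *XAF1*, -9.06 in *POSTN*, -8.22 in *RP1*, -7.52 in *APOC1*, -7.39 in *IL17B*, -7.16 in *NXNL1*, -7.03 in *MSN*, -6.91 in *DCT*, -6.74 in *COX4I2* and -6.61 in *ADAMTS10*. *XAF1*, an interferon-inducible gene of cell death, had means of 6.55 and 7.06 in H82, whereas in H524 it was listed at 0 without doxycycline and had a mean of 10.50 with it. *RP1* and *NXNL1* were listed at 0 in all H524 libraries of the comparison.

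Against H69 the response of H82 was higher by 15.22 in *L3MBTL4*, 13.92 in *TMEM176A*, 13.70 in *PCSK1*, 13.28 in *MEST*, 12.74 in *H19*, 11.99 in *ESRP1*, 11.75 in *LINC00475*, 11.68 in *CHST9*, 11.61 in *CCBE1* and 11.41 in *GDF15*. *PCSK1* went from a mean of 0.82 to 6.81 in H82 and from 9.06 to 1.35 in H69, and *ESRP1* from 2.51 to 6.02 and from 9.72 to 1.23.

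The difference from H69 was -10.19 in *IL17B*, -8.99 in *SUSD2*, -8.75 in *MSN*, -8.70 in *SPARC*, -8.52 in *GAGE12H*, -8.39 in *CTAG2*, -8.37 in *ANXA6*, -8.11 in *PTGER2*, -8.03 in *GAGE2E* and -7.98 in *LPPR4*. *SPARC*, a matrix protein, rose in both lines, from a mean of 8.77 to 11.08 in H82 and from 1.67 to 12.68 in H69. The *GAGE* genes are near copies of one another, so their values are uncertain. Library 4 moved the count for H524, which was 3548 without it, and the cause was not tested.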

How the results depend on the processing

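Of 95 recomputed counts of calls, 91 stayed within 1.5 times the values in the report. The exceptions came from dropping the minimum fold, which by construction admits more genes: 6994 genes changed by doxycycline in H82 NOTCH1 cells, 4558 differed in response from H524, and 4626 and 3843 calls were shared in direction with the REST KO and STING KO pairs. When each library was left out in turn, the first count ranged from 3598 to 4223, the difference from H524 from 2705 to 3548, the difference from H69 from 6582 to 6874, and the calls shared with the REST KO and STING KO pairs from 2219 to 2639 and from 1845 to 2068. The median of the REST and CoREST list (-0.08) was 0.0405 without library 5 and ranged from -0.1291 to 0.0718 over the libraries left out. That of the MHC class II list (0.06) was -0.3110 with quantile normalization and -0.0580 without library 8, and ranged from -0.1034 to 0.1595. Of 378 recomputed list medians, 346 moved by less than the spread between libraries, 27 moved by more, 16 of them with a pseudocount of 0.1, and 5 changed sign. Of 3743 recomputed log2 fold changes of 268 named genes, 3605 kept their direction and their side of the threshold, 76 were no longer calls, 36 became calls and 26 changed sign. Against the parental cells the sign changed in *USP18* (3.76), *DTX1* (0.65), *ANXA6* (0.25), *ZEB1* (0.20), *SUSD2* (0.0506), *TBK1* (0.0489) and *EZH2* (-0.26), and 26 of the named genes were no longer calls, among them *CD40*, *CD8A*, *CFD*, *CXCL11*, *ESRP1*, *HBA1*, *HEY2*, *HLA-DPA1*, *ID1*, *IGF2R*, *JUND*, *LFNG*, *LHX2*, *MXI1* and *TEAD4*. The other genes that changed sign were not called. With sample weights *MAX* was at 0.32, *TYRO3* at -0.30, *MERTK* at -0.0916, *EZH2* at -0.0814 and *TBK1* at 0.007357, and with quantile normalization *EPCAM* was at -0.13 and *PCNA* at 0.0676. Over the libraries left out *EZH2* ranged from -0.14 to 0.23, *MAX* from -0.21 to 0.27, *MERTK* from -0.13 to 0.35, *PCNA* from -0.45 to 0.19, *TBK1* from -0.23 to 0.14 and *TYRO3* from -0.53 to 0.40. The cause was not tested. All 760 recomputed differences between lines kept their direction and their side of the threshold. They belong to genes chosen for the largest differences in the same fit, far from the threshold, so this does not speak for smaller differences. Absolute depth is unknown, which limits what can be said of genes near 0. No paired analysis was possible because the library numbers run on through the groups, so that the groups compared share none.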

Other observations

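Photoreceptor genes were expressed in uninduced H82 cells and were mostly lower with doxycycline. This list was chosen after the values were seen and has no test. Of 29 photoreceptor genes tested, 20 were lower and 1 was higher, with a median log2 fold change of -2.04 beside -0.003 for all genes tested. *CRX*, the transcription factor of photoreceptor identity, was at 3.45, 6.00 and 5.60 without doxycycline and at 0.51, 0.67 and 0.66 with it. *RBP3*, which encodes a retinoid carrier of the retina, had a log2 fold change of -5.95, *IMPG2* of -5.39, *AIPL1* of -4.51, *RXRG* of -3.84 and *OTX2*, a factor upstream of *CRX*, of -2.93. *GUCA1A*, which encodes a guanylate cyclase activator, went the other way, from 4.48, 2.05 and 1.69 to 5.88, 6.66 and 6.92. In the REST KO and STING KO pairs 21 and 22 genes of the list were lower, where 13.7% and 8.07% of all genes tested were. In H524 and H69 6 and 5 were lower, beside 6.78% and 18% of all genes tested, so the count in H69 was near the share of all genes.

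Of 10 imprinted genes tested, also chosen after the values were seen, 3 were higher and 2 lower. These were 30% and 20%, beside 14.7% and 12.4% of all genes tested. *H19* and *MEST* had log2 fold changes of 8.17 and 6.24 and *IGF2R* of 1.37, while *PEG10* had -2.77 and *DLK1* -1.81.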
